A study of Mus musculus with 2 samples.

Results

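The genes described here make and load MHC class I molecules: the light chain gene B2m, the heavy chain genes H2-K1 and H2-D1, the peptide transporter genes Tap1 and Tap2, the tapasin gene Tapbp, and the immunoproteasome genes Psmb8 and Psmb9. Members were the gene probes whose name in the scanner files was one of these 8 symbols, which gave 15 of 41174 gene probes on the array. The study measured total RNA of the mouse ES cell line R1 on 2 one-colour Agilent arrays. The day 0 array held undifferentiated ES cells, and the labels state that the line was kept on mitotically inactive fibroblast feeders in medium with 15% serum and 1000 U/ml leukaemia inhibitory factor (LIF). The day 6 array held embryoid body cells after direct neural differentiation, described in the labels as neural precursors. The labels do not say how the feeders were separated from the ES cells, nor which serum or LIF the day 6 cells had. Each group had 1 array of 1 cell line, so no value below has a replicate check, no test between the days was possible, and "higher" and "lower" describe these 2 RNA samples only.

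A class I molecule is a heavy chain held by beta-2 microglobulin that shows a peptide at the cell surface to T cells. The peptides are cut in the cytosol by the proteasome, carried into the endoplasmic reticulum by the Tap1-Tap2 transporter, and loaded with the help of tapasin. In cells exposed to interferon the subunits encoded by Psmb8, Psmb9 and Psmb10 take the places of the constitutive catalytic subunits encoded by Psmb5, Psmb6 and Psmb7. ES cells are known for little class I protein at their surface.

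Signals are given as intensities in scanner units, after the scanner software's background subtraction and before any scaling between arrays. Differences are log2 intensities minus the 75th percentile of each array, day 6 minus day 0. That percentile was 1.17 times higher on day 6, so a probe with equal scaled signal has a 1.17 times higher intensity there. The error after ± is the scanner software's error of the difference as an SD, which holds technical error within the arrays only. It stood near 0.20 for bright probes and is not a spread measured over spots. An H2-K1 and a B2m probe, each spotted 10 times an array, had log2 SDs of 0.04 to 0.08 over those spots.

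The probes quoted here read through all their bases without a stop codon in at least 1 frame. The pair for Psmb8 and the single probes for Psmb9 and Tap1 are shown because the immunoproteasome and transporter results rest on them. The dimmer H2-K1 probes and the H2-D1 probe above background are shown because class I genes are close relatives. The brightest H2-K1 probe, which gives that gene's value, has a stop codon in every frame and is not printed. All are 60 bases long, written 5′ to 3′, with no part marked.
Psmb8, probe A_51_P345366: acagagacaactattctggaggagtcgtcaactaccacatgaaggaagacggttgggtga
Psmb8, probe A_51_P345367: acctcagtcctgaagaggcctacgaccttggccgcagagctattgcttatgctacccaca
Psmb9, probe A_51_P369803: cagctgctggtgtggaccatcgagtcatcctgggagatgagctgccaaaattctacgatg
Tap1, probe A_51_P100327: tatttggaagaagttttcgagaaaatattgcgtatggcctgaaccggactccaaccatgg
H2-K1, probe A_52_P474242: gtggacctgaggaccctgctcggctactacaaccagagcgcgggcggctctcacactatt
H2-K1, probe A_52_P50496: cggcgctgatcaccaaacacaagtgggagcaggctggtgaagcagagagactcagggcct
H2-D1, probe A_51_P496996: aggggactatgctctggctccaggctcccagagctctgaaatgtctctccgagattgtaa

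The probe positions are given by the scanner files in the mouse build mm7. The Psmb8 pair lies at chromosome 17, 32280725 to 32281049 and 32280668 to 32280727, and the first of these covers 325 bases of the genome, more than the 60 bases of the probe. The pair lies end to end and is not 2 separate views of the transcript. The Psmb9 probe lies at chromosome 17, 32262147 to 32262206, and the Tap1 probe at 32273751 to 32273810. Each member probe was set against all other gene probes of the array, and a similar one was defined as sharing at least 80% of bases over an ungapped overlap of at least 40 bases. No member probe but one had such a partner. The brightest H2-K1 probe overlapped a probe named LOC56628, described in the file as a class I antigen of the H-2K-f type, by 57 bases with 8 mismatches. This search covered probes and not transcripts, so uptake of RNA of related class I genes by these probes was not tested.

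Of the 15 member probes, 14 were well above background on both arrays and 1 was on neither. The member probes did not share 1 direction. The heavy chain probes above background were 1.64 to 2.06-fold higher on day 6, and 1 of them was past 2-fold. Such a difference was not particular to them, as the other class I genes described below had a median of 0.82. Uptake of RNA by probes of related class I genes was not tested, so that list may not be a separate measure. The brightest B2m probe differed by less than its error, and the transporter genes were within 2-fold. By their brightest probes, tapasin and the immunoproteasome subunits were past 2-fold in the lower direction, Psmb8 by 50.3-fold. A difference of 2-fold or more was found for 1 probe in the higher direction, against 17.6% of the 28378 probes tested on the array, and for 4 probes in the lower direction, against 18.1%. With each gene given the value of its brightest probe, 0 of 8 members passed 2-fold in the higher direction, against 17.8% of the 14967 genes tested, and 3 of 8 in the lower direction, against 20%. The median difference over the 8 genes was -0.43, beside -0.09 over all genes, and it covers values from -5.65 to 0.98. No member spot was saturated or marked as an outlier. In such bulk RNA, fewer cells of a type and less RNA per cell cannot be told apart.

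**Figure D1:**
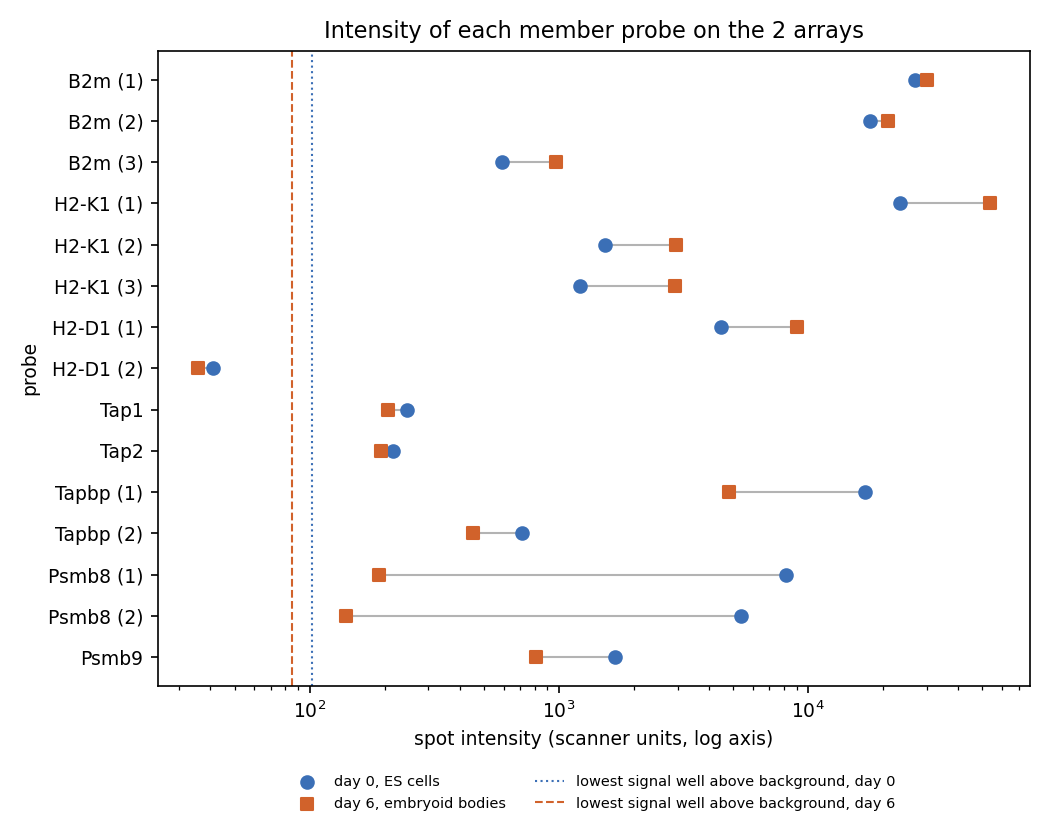
Intensity in scanner units (log axis) of each of the 15 member probes on day 0 (circles) and day 6 (squares), with lines for the lowest signal well above background on each array; probes of a gene are numbered from the brightest on day 0. The Psmb8 pair has the longest lines, from 8189 and 5373 down to 190 and 140, and the second H2-D1 probe lies below both background lines.

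The heavy chain genes, which encode the chains that hold the peptide, had higher signal on day 6 with each probe above background. The brightest H2-K1 probe, spotted 10 times on each array, had intensities from 21816 to 24361 on day 0 (median 23668) and from 50778 to 56389 on day 6 (median 53538). Before scaling, the 10 day 0 spots and the 10 day 6 spots did not overlap. This was also so for the B2m probe spotted 10 times, whose scaled difference was 0.03, so it does not set H2-K1 apart. How often spots fail to overlap for other such probes was not counted. The spots of an array varied by 3.41% and 3.45% (coefficient of variation, day 0 and day 6), which is technical spread within an array. After scaling the difference was 0.98 ± 0.20, a 1.97-fold higher signal that lies just under 2-fold. The other H2-K1 probes gave 1539 and 2954 (difference 0.72 ± 0.21) and 1215 and 2921 (difference 1.04 ± 0.21). The second of these was the member probe counted as past 2-fold, and it was so in 5 of 10 settings. Those 5 include the main setting, the keeping of outlier spots and both filter settings. The filter settings cannot move a probe well above background on both arrays. The probe stood at 0.93 with median scaling and at 0.99 with quantile normalization and in the authors' deposited value table. With quantile normalization, with no scaling and in the authors' deposited value table, the brightest H2-K1 probe passed 2-fold, at 1.23, 1.20 and 1.24.

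H2-D1, the gene of a second classical heavy chain, gave 4462 in the ES cells and 9016 in the embryoid body cells, a difference of 0.79 ± 0.20 (1.73-fold). This stayed under 2-fold except with no scaling, where it was 1.01. The second probe that carries the name H2-D1 was not well above background on either array, at 40.8 and 35.5. The file describes it with accession X03051 as an mRNA for thymus-leukaemia antigen and places it at chromosome 17, 34358688 to 34358747, whereas the first lies at 33361850 to 33362082, so its name and its description disagree and it was given no difference.

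B2m, the gene of the invariant light chain that every classical class I molecule needs, differed between the arrays by less than the heavy chains did. Its brightest probe had intensities of 26774 on day 0 and 30074 on day 6, a difference of -0.05 ± 0.20. The probe spotted 10 times ranged from 15537 to 18795 on day 0 (median 18016) and from 20255 to 21866 on day 6 (median 21155), a difference of 0.03 ± 0.20 once the 1.17 times higher percentile of day 6 is taken off. The spots of the 2 arrays therefore do not overlap before scaling, while the scaled difference is smaller than its error. The sign of the B2m difference turned with scaling: it was 0.18 with quantile normalization, 0.17 with no scaling and 0.19 in the authors' deposited value table, all under 2-fold. The remaining B2m probe, of accession AK086184 and described in the file as unclassifiable, gave 591 and 978, a difference of 0.50 ± 0.22, and lies at chromosome 2, 121889716 to 121889775, apart from the pair between 121893518 and 121893698. Set against B2m on the same arrays, the H2-K1 difference was larger by 1.03 ± 0.29 and that of H2-D1 by 0.85 ± 0.29.

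**Figure D2:**
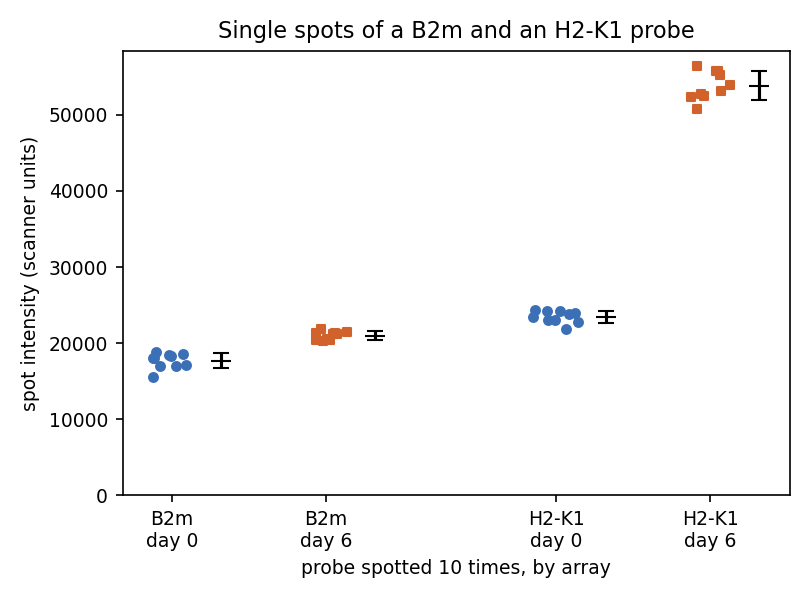
Intensity in scanner units, before scaling, of single spots of a B2m probe and an H2-K1 probe that were each spotted 10 times, on the day 0 array (circles) and the day 6 array (squares); bars give the mean and SD over spots. The H2-K1 spots lie between 21816 and 24361 on day 0 and between 50778 and 56389 on day 6. The B2m spots lie between 15537 and 18795 on day 0 and between 20255 and 21866 on day 6.

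Tap1 and Tap2 encode the 2 chains of the peptide transporter, and each had 1 dim probe. Tap1 had intensities of 245 on day 0 and 207 on day 6, 2.40 and 2.43 times the lowest signal well above background on those arrays. Its difference was -0.47 ± 0.30. Tap2 had 215 and 193, a difference of -0.38 ± 0.28. Both were within 2-fold in all settings tried, and both differences were under 2 of their error SDs, so a difference of this size was not resolved at this signal.

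Tapbp encodes tapasin, which ties the transporter to empty class I molecules. Its brighter probe, which the file assigns to transcript variant 1, gave 17015 on day 0 and 4813 on day 6, a difference of -2.04 ± 0.20 (4.12-fold lower). The dimmer probe, assigned to variant 2, gave 711 and 451, a difference of -0.88 ± 0.22 (1.84-fold lower). The probes had the same direction and not the same size, and only the brighter one was past 2-fold. With the mean of the probes the gene stood at -1.46.

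Psmb8 encodes an immunoproteasome subunit with a catalytic site and had the largest difference of the members. One probe gave 8189 on the ES cell array and 190 on the day 6 array, a difference of -5.65 ± 0.26 (50.3-fold lower). The other had 5373 and 140, a difference of -5.49 ± 0.28 (44.9-fold lower). On day 6 these signals were 2.23 and 1.64 times the lowest signal well above background, so Psmb8 was close to the limit of detection there and the fold depends on how background is removed. The first probe stood at -5.04 with the normexp background correction and at -4.94 with no background subtraction. Of all probes tested, 0.617% and 0.719% had a lower difference than these probes. Psmb9, which encodes a second such subunit, had 1686 on day 0 and 810 on day 6, a difference of -1.28 ± 0.21 (2.43-fold lower).

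**Figure D3:**
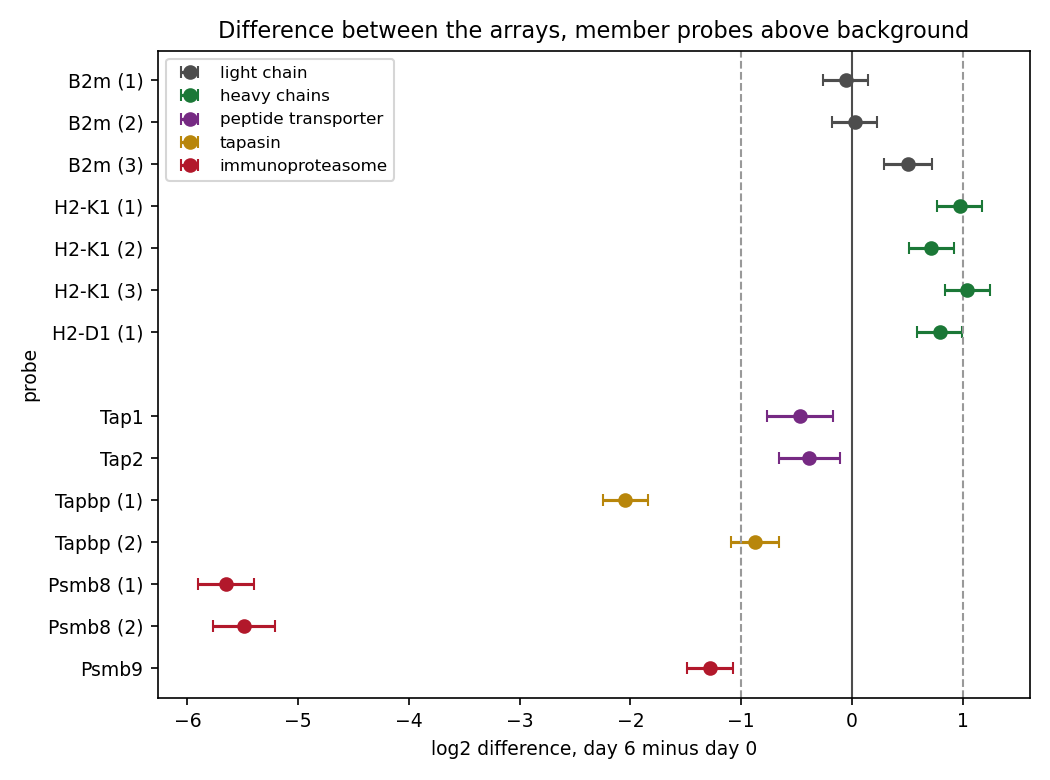
Log2 difference, day 6 minus day 0 after scaling, of the 14 member probes above background, coloured by role, with the software error SD as bars and dashed lines at 2-fold. The Psmb8 pair lies at -5.65 and -5.49. The H2-K1 and H2-D1 probes lie between 0.72 and 1.04, with 1 of them past 2-fold. The Tap1, Tap2 and B2m probes and the dimmer Tapbp probe lie within 2-fold.

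The difference between immunoproteasome and constitutive subunits was next described with Psmb10 included. Psmb10, the remaining inducible catalytic subunit, had 65322 on day 0 and 12007 on day 6, a difference of -2.67 (6.35-fold lower). Its constitutive counterpart Psmb7 had 50064 and 49032, a difference of -0.25. Psmb5, the counterpart of Psmb8, had 86079 and 61877 (difference -0.70), and Psmb6, the counterpart of Psmb9, had 134360 and 137536 (difference -0.19). Within each pair the inducible gene was lower relative to its counterpart: the inducible difference minus the constitutive one was -4.95 ± 0.33 for Psmb8, -1.09 ± 0.29 for Psmb9 and -2.41 ± 0.29 for Psmb10, in log2 units. Of 14 constitutive 20S core genes, none passed 2-fold in either direction, beside 17.8% of all genes higher and 20% lower. Their differences ran from -0.70 for Psmb5 to -0.06 for Psmb1, with Psma2, a structural subunit, at -0.62 and Psma7 at -0.17. The median of these 14 genes was -0.32, and it was -0.01 with quantile normalization and in the authors' deposited value table.

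Psmb9, Tap1, Psmb8 and Tap2 lie side by side in 34292 bases of chromosome 17 and are the only 4 genes in the RefSeq table that lie wholly in that stretch of GRCm38.p6. Their differences in that order were -1.28, -0.47, -5.65 and -0.38, so the gene with the largest difference lay between 2 genes within 2-fold. Tap1 and Tap2 were dim on both arrays, and differences of the size of theirs were not resolved. Psmb9 and Tap1 start 225 bases apart on opposite strands, and the stretch between their starts is shown because both genes share it. Psmb9 was past 2-fold (-1.28 ± 0.21) and Tap1 was not (-0.47 ± 0.30), a contrast that rests on a dim Tap1 probe. It comes from RefSeq on GRCm38.p6, chr17:34187331-34187555, plus strand, with the match to CCAAT in capitals.
Psmb9 to Tap1: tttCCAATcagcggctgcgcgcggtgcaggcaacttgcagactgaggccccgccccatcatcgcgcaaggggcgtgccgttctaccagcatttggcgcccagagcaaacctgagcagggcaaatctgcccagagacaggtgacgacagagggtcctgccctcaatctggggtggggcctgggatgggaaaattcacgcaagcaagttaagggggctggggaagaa

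Promoter letters were searched in RefSeq windows of 250 bases before to 50 after a start, which the table held for 7 of the 8 members. The motifs were the core of the interferon-stimulated response element, TTCNNNGAA (the core of a gamma-activated site), 2 forms of the NF-kappa-B motif, TGACGTCA, CCAAT and TATAAA, each on both strands and counted wherever they overlapped. Of all 32851 windows, 3.44% held the first, 8.3% the second, 0.155% and 0.107% the NF-kappa-B forms, 1.79% TGACGTCA, 37.4% CCAAT and 13.6% TATAAA. B2m held the interferon element core and the commoner NF-kappa-B form. H2-K1 and H2-D1 held the rarer NF-kappa-B form, and Psmb8 held TTCNNNGAA. CCAAT was held by B2m, H2-K1, H2-D1, Tapbp, Psmb9 and Tap1, TATAAA by B2m, H2-K1, H2-D1 and Psmb8, and TGACGTCA by none of the 7. A match is a description of the letters and not a site, and no match says only that the letters are not in the window.

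The 250 bases before the starts of B2m, of the heavy chain genes and of Psmb8 are shown because their differences were unlike. Psmb8 was past 2-fold in the lower direction, and the heavy chain genes were higher but within 2-fold in the main setting. B2m was within 2-fold in all 11 settings. They are from RefSeq on GRCm38.p6, each on its gene's strand, at chr2:122147437-122147686 (plus) for B2m, chr17:34000348-34000597 (minus) for one of 2 listed H2-K1 starts, chr17:35262844-35263093 (plus) for H2-D1 and chr17:34197945-34198194 (plus) for Psmb8. Capitals mark matches to the interferon element core, TTCNNNGAA, the NF-kappa-B forms and CCAAT.
B2m: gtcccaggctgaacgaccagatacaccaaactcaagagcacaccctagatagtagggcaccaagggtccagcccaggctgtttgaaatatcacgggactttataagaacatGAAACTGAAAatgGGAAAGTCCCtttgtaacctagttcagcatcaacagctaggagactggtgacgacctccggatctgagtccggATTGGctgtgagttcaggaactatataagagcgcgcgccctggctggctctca
H2-K1: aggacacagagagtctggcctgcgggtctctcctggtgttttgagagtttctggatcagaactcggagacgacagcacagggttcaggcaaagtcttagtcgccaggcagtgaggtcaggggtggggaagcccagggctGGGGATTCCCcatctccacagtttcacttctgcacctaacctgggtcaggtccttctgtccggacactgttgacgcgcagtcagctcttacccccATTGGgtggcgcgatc
H2-D1: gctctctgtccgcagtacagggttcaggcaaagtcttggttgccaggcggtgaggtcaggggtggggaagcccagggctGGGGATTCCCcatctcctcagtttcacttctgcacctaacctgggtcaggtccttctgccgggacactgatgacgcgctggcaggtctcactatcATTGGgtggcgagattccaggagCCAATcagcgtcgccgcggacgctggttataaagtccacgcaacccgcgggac
Psmb8: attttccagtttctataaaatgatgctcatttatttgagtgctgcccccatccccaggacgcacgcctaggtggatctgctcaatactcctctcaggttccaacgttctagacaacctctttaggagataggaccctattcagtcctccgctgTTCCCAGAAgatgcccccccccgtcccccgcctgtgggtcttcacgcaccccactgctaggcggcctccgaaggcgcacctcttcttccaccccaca

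Other genes of the class I pathway were taken from a list of 12, of which 10 had a named probe and all 10 were above background on both arrays. Past 2-fold lay 3 in the lower direction, beside 20% of all genes, and 2 in the higher direction, beside 17.8%. The list median was -0.62 beside -0.09 for all genes. The 2 higher ones were near the threshold: their number was 0 with median scaling or no background subtraction, and 1 with quantile normalization, normexp or the authors' deposited value table. The number of lower ones was 2 with the mean of probes. Besides Psmb10, the lower ones were Tapbpl, which encodes the tapasin-related editor TAPBPR (1139 and 249, difference -2.41), and Erap1, which encodes a peptide-trimming enzyme of the endoplasmic reticulum (3251 and 999, difference -1.93). A dim second Erap1 probe was well above background on day 6 only, at 187, and its difference there had a lower bound of 0.64. The higher ones were Rfx5 and Rfxank, which encode parts of the RFX complex that binds class I and class II promoters. Rfx5 had 166 and 400 (difference 1.05), and Rfxank had 3983 and 9330 (difference 1.01). Nlrc5, the class I transactivator gene, had no probe under that name among those named here.

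Among the remaining class I genes, the array named 29, of which 17 were above background somewhere, 5 past 2-fold in the higher direction (17.8% of all genes) and 1 in the lower direction (20% of all genes), and their median was 0.82. With no scaling 10 lay past 2-fold in the higher direction. Cd1d2, a CD1 gene, was well above background on day 6 only (282) and at least 2.37-fold higher. Mr1, the gene of a molecule that presents vitamin B metabolites, was also above background on day 6 only (208) and at least 1.74-fold higher, which is under 2-fold. These 2 were the highest of the list only against day 0 signals not well above background (21.4 and 24.5). Among genes above background on both arrays the highest was H2-Bl, named here after its values were seen (2265 and 8559, difference 1.70). The gene past 2-fold in the lower direction was Procr, the endothelial protein C receptor (3749 and 1234, difference -1.83). Fcgrt, the neonatal Fc receptor heavy chain gene, had 404 and 286, a difference of -0.72. The H2-Q and H2-T genes of this list are relatives of the heavy chain members, and uptake of RNA of one by probes of another was not tested. For H2-Q10, named here after its values were seen, 2 probes were higher (0.81 and 0.58) and 2 were lower (-1.76, and at most -2.03 with day 6 not well above background).

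Class II genes, which mark antigen presenting cells, differed in both directions. Of the 13 named on the array 7 were above background somewhere. Past 2-fold lay 2 in each direction (all genes: 17.8% higher, 20% lower). Over the settings the higher ones numbered 1 to 2 and the lower ones 1 to 4. The list median was 0.35, which turned to -0.55 with the mean of probes and to -0.45 with normexp. H2-Ab1, a class II beta chain gene, had 331 on day 0 and 4081 on day 6, a difference of 3.40 (10.6-fold higher), and the other 3 of its 4 probes were well above background on day 6 only. H2-Oa, an alpha chain gene of a class II loading regulator, was above background on day 6 only (616) and at least 5.16-fold higher. Cd74, the invariant chain gene, had 776 and 183, a difference of -2.31. Ctss, the gene of the protease cathepsin S that trims the invariant chain, had 5385 on day 0 and was not well above background on day 6, at least 73.8-fold lower.

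Regulators of the interferon response, which is known to raise the class I genes, were mixed. Of 15 measured genes 3 lay past 2-fold in the higher and 4 in the lower direction, shares near those of all genes (17.8% and 20%), and the list median was -0.13. With no scaling the balance turned to 5 higher and 2 lower. Irf1, a transcription factor that acts on class I and immunoproteasome promoters, had 38086 and 4920, a difference of -3.18 (9.03-fold lower), and its second probe had a difference of -3.34. Socs1, a feedback inhibitor of cytokine signalling, had 6016 and 1468 (difference -2.26). Higher signals on day 6 were found for Irf2 (difference 2.59), which competes with Irf1, for the kinase gene Jak2 (2.29) and for Stat2 (1.21).

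Genes with other functions from the same region of chromosome 17 were past 2-fold about as often as all genes (17.8% higher, 20% lower). Past 2-fold lay 2 of the 12 measured in each direction, and their median was -0.05. With median scaling 4 lay past 2-fold in the lower direction. Ring1, a Polycomb gene, and Col11a2, a collagen gene, were higher by 1.67 and 1.52, and Wdr46, a ribosome biogenesis gene, and Daxx, a histone chaperone gene, were at -1.81 and -1.57.

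**Figure D4:**
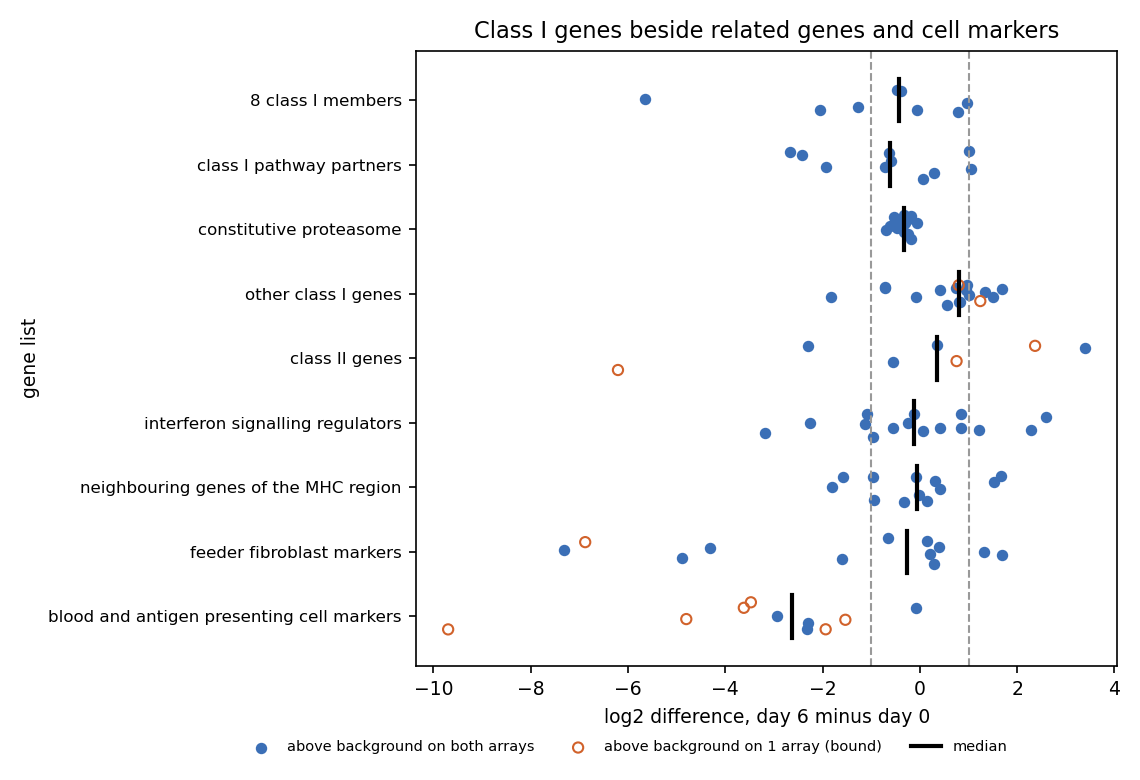
Log2 difference, day 6 minus day 0, of single genes (points) by list, with the list median (bar) and dashed lines at 2-fold; open circles are genes well above background on 1 array only, drawn at their bound. The constitutive proteasome genes lie between -0.70 and -0.06, while the 8 class I members run from -5.65 to 0.98 and 9 of the 10 blood and antigen presenting cell markers lie below the lower dashed line.

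The labelled cell types were checked against their markers. All 6 ES cell markers were at least 2-fold lower on day 6, Zfp42 from 263017 to 4261 and Dppa5a from 623918 to 23844. Of 6 neural precursor markers, 5 were at least 2-fold higher, Fabp7 from 291 to 108341, Pax6 from 3144 to 20567, and Nes was at 33271 and 49114. Of 10 blood and antigen presenting cell markers, 10 were well above background on day 0 and 4 on day 6, 9 were at least 2-fold lower, and their summed intensity was 68394 on day 0 and 1338 on day 6. Most of that sum was Lyz2, a macrophage and granulocyte lysozyme gene, which had 60529 on day 0 and was not well above background on day 6 (40.3), at least 829-fold lower. Laptm5, a lysosomal protein gene of blood cells, had 2035 and was at least 27.9-fold lower, Fcer1g had 1037 and 244, and Cd14 had 417 and 460. Ptprc, Itgam, Tyrobp and Adgre1, named here after their values were seen, were not well above background on day 6. Markers were counted by the brightest probe of each gene. For Ptprc, Itgam and Adgre1 only that probe was well above background on day 0, and their other probes were not on either array. Cd74 stands in this list and in the class II list. Of 12 feeder fibroblast markers, 12 were above background on day 0 and 11 on day 6, and 5 lay past 2-fold in the lower and 2 in the higher direction. The sum of the 12 was 133239 and 40061, which follows the brightest genes, while their median difference was -0.26. Col1a1 had 46224 and 2700, Col1a2 had 22278 and 8621, and Mmp2 had 2411 and 7027. The endothelium markers numbered 4, of which 3 were at least 2-fold lower, with a sum of 2995 and 987. Kdr had 1197 and 554, Cdh5 had 203 and 344, and Tek was above background on day 0 only. The part of these other cells in the lower Psmb8, Psmb9, Psmb10, Tapbp and Irf1 signals was not tested.

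The counts over all genes depended on the scaling. The main counts past 2-fold were 2664 genes in the higher and 2996 in the lower direction (47.1% higher), and with no scaling they were 3282 and 2396 (57.8% higher). The median of all genes was -0.09, and -0.21 with median scaling, 0.13 with no scaling and 0 with quantile normalization. Taken relative to the all-gene median of each setting, Psmb8 ran from -5.67 to -4.84, Tapbp from -1.97 to -1.37, Psmb9 from -1.38 to -0.999 (with no filter), H2-K1 from 0.9996 to 1.26 and B2m from 0.039 to 0.25.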

How the data were processed

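The members and gene lists were chosen with earlier results of these data known. The authors deposited 1 Agilent Feature Extraction file per array, with intensity values per spot after background subtraction and detrending, and the software's error of each intensity. Per the file headers, both arrays had design 014868, were extracted with Feature Extraction 9.5.3.1 and shared 1 slide and 1 scan. Each group lay at its own slide position, so the effect of position and of group cannot be told apart. A second deposited table by the authors holds log2 values, whose sorted columns differed by at most 0.000469. Quantile normalization gives such equal columns, so this table and the quantile setting are not separate checks. The making of the table is not stated. Its scale and direction were settled against the scanner files (differences correlated at 0.996 across probes, which are not independent), and it served as an alternative.

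Spots that were controls or marked as outliers were dropped, log2 intensities of spots of a probe were averaged, and the array's 75th percentile (3746 on day 0, 4371 on day 6) was subtracted. Probes entered the comparison when either array had them well above background (25246 probes on day 0, 26896 on day 6). Genes other than the members were named by accession, current symbol or unique older symbol in a RefSeq table of GRCm38.p6, and 8455 probes had no name. Where a probe was above background on 1 array, the fold is a bound ("at least"): the bright array's scaled value against the higher of the dim array's lowest value well above background (102 on day 0, 85.2 on day 6) and the probe's own. Differences were counted at 2-fold, with no test, since each group had 1 array, which is what limits the precision. Over all probes compared, the software's error of a difference had a median of 0.21 in log2. The counting steps were tested on simulated data. Named genes were every member, the 2 highest and 2 lowest of each list, all past 2-fold where at most 3 were, a fixed few (Psmb5, Psmb6, Psmb7, Psmb10, Nlrc5 and Irf1, and a gene that is not reported here), and the 2 brightest markers on each array. Work was done in Python 3.11.15 and limma 3.58.1 (normexp with offset 50). A comparison of protein sequences was not run.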

Additional observations from a re-analysis of the deposited data

How the results depend on the processing

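With 1 array a group there was no replicate to leave out. No paired analysis was possible because each group had 1 array and no test was run. Values that shifted by more than their software error (for a list, by the median error of its genes) are given here, and the main count of member probes at least 2-fold higher was 1. Psmb8, Psmb9 and Tapbp were at least 2-fold lower, and B2m, Tap1 and Tap2 within 2-fold, in all 11 settings. Not all of these settings could move a member. The values come from probes well above background on both arrays, so both filter settings left them unchanged. Psmb9, Tap1 and Tap2 had 1 probe each, so the mean of probes left them unchanged too. No member spot was an outlier, so keeping outlier spots changed only the scaling. With quantile normalization, B2m stood at 0.18, H2-K1 at 1.23, the pathway partners at -0.26, the constitutive proteasome at -0.014 and the neighbouring genes at 0.16. In the authors' value table, which is not a separate check from quantile normalization, these were 0.19, 1.24, -0.27, -0.012 and 0.18. With no scaling the member median was -0.20, B2m 0.17, H2-K1 1.20, H2-D1 1.01, Tapbp -1.82, Psmb9 -1.06, the pathway partners -0.39, the constitutive proteasome -0.10, the other class I genes 1.04, the interferon regulators 0.094 and the neighbouring genes 0.17, and 3 member probes were at least 2-fold higher. That number was 0 with median scaling, normexp and no background subtraction. Psmb8 stood at -5.04 with normexp and -4.94 with no background subtraction. The class II median turned negative in 5 settings: -0.45 (normexp), -0.44 (background kept), -0.10 (both arrays above background), -0.51 (unfiltered) and -0.55 (probe means). The other class I genes were at -0.078 with no filter, which adds genes below background. With the mean of probes B2m was 0.16 and Tapbp -1.46. The cause was not tested, except where fewer or other probes enter by construction. Keeping outlier spots and setting list genes at their bound, both added after seeing the data, moved none of these. Signal over background limits Tap1, Tap2 and the day 6 signal of Psmb8.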
